A study of Mus musculus with 20 samples.

Results

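The aminoacyl-tRNA synthetase genes, which encode the enzymes that load amino acids onto transfer RNAs, were taken by symbol from the expression files of sorted mouse germinal centre B cells. All 36 listed members were found among 23382 genes, 20 of them encoding cytosolic enzymes and 16 encoding mitochondrial enzymes, whose symbols end in 2. RNA was measured in 20 libraries, 5 in each of 4 groups. The first group held centrocytes, sorted as B220+FAS+GL7+CXCR4-CD86+, from mice heterozygous for the L252P allele of Myd88 (Myd88L252P +/-), and the second held centrocytes from control mice with wild-type Myd88. The other groups held centroblasts, sorted as B220+FAS+GL7+CXCR4+CD86-, from L252P mice and from control mice. Every mouse, control or mutant, was heterozygous for Cgamma1Cre, a Cre recombinase driven from the Cγ1 heavy chain locus. The sources used here state neither age nor immunisation. Nor do the labels tie the libraries of a group to separate mice, so each p-value covers library-to-library spread, which may be technical.

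Most synthetases recognise 1 amino acid and join it to its transfer RNAs, the step on which the accuracy of translation rests. The cytosolic and mitochondrial enzymes for most amino acids are encoded by separate nuclear genes, while Kars and Gars supply both compartments, and mitochondria make their glutaminyl-tRNA by an indirect route that uses Ears2 and an amidotransferase. Several cytosolic enzymes sit together in the multisynthetase complex. Germinal centre B cells divide in the dark zone as centroblasts and undergo selection in the light zone as centrocytes, and amino acid shortage in mammalian cells raises many cytosolic synthetase transcripts through the transcription factor ATF4.

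Levels are in TPM, a share of transcripts that corrects for transcript length and sums to 1000000 in every library. Fold changes are log2 differences of TPM + 1, given as log2 fold ± standard error, and a gene was called when its Benjamini-Hochberg adjusted p in limma, over the 11386 genes that reached 1 TPM in 5 or more libraries, was under 0.05. All 36 members passed that filter. Between zones of each genotype the sort genes followed the gates. Cxcr4 lay between 147 and 180 TPM in L252P centrocytes, 277 and 324 TPM in control centrocytes, 234 and 507 TPM in L252P centroblasts and 546 and 622 TPM in control centroblasts. By genotype it was also called lower in L252P mice, without overlap in either zone. The log2 folds were -0.86 in centrocytes (adjusted p = 0.00277) and -0.59 in centroblasts (adjusted p = 0.027). The centroblast fold was -0.28 without L252P centroblast libraries 4 and 5, set apart below. Cd86 was called higher in centrocytes, at log2 folds of 1.17 in controls and 1.22 in L252P mice. The germinal centre genes S1pr2 and Bcl6 were at 247 TPM or more and 154 TPM or more in every library. Markers of macrophages and neutrophils (17 genes, summed) reached 116 to 314 TPM in L252P centrocytes, 145 to 349 TPM in control centrocytes, 62.3 to 122 TPM in L252P centroblasts and 70.2 to 93.0 TPM in control centroblasts, and 11 of the 13 tested were called higher in control centrocytes than in control centroblasts. T cell markers (9 genes, summed) lay between 203 and 247, 179 and 296, 165 and 248, and 100.4 and 231 TPM in the same order of groups. Nearly all of this was Lck, a kinase of T cell receptor signalling, since the other 8 reached at most 2.65 TPM each in any library and Cd3e stayed between 0 and 1.37 TPM. Lck and Cd3g, 2 of the 3 tested, were called higher in control centrocytes than in control centroblasts, at log2 folds of 0.66 and 0.82. Beside these counts of macrophage, neutrophil and T cell markers, 21.2% of all tested genes were called higher in that comparison. The summed erythroid markers (9 genes) were 244 to 599, 54.0 to 283, 330 to 823 and 36.1 to 280 TPM in the same order of groups, with Hbb-b2, Hba-a1 and Hba-a2 at 0 throughout. The part of these cells in the synthetase values was not tested, and with bulk RNA fewer cells of a type and less RNA per cell cannot be told apart. L252P centroblast libraries 4 and 5 stood apart: the share of TPM in transcripts no longer than 1938 bases was 52.2% and 57.8%, and 41.1% to 47.3% in the other 18 libraries, so the main folds and counts that use these libraries are also given without them.

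The cytosolic class was the more abundant by a wide margin. The median cytosolic member averaged 108 TPM over the 20 libraries, above 83.3% of tested genes, and the median mitochondrial member averaged 24.2 TPM, above 47.0% of them. Kars, for lysine, was the most abundant member in centrocytes, at 294 ± 18.6 TPM in L252P and 270.03 ± 11.4 TPM in control libraries (SD, n = 5 each). Vars, for valine, held that place in centroblasts, at 322 ± 50.4 TPM in L252P and 328 ± 71.7 TPM in control libraries, but its libraries overlapped those of Kars, which averaged 264 ± 35.8 TPM in L252P and 279.6 ± 14.3 TPM in control centroblasts. Wars2, the mitochondrial enzyme for tryptophan, had the lowest mean over all libraries among the members.

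Summed over the class, the 20 cytosolic members made 2862 ± 128 TPM in L252P centrocytes, 2697 ± 55.6 in control centrocytes, 2638 ± 292 in L252P centroblasts and 2851 ± 117 in control centroblasts. The 16 mitochondrial members summed to 485 ± 61.5, 466 ± 13.9, 428 ± 33.5 and 441 ± 11.9 TPM in the same groups. Without libraries 4 and 5 the L252P centroblast sums were 2797 and 444 TPM. The zones overlapped for both sums in each genotype, in controls only at the edges for the cytosolic sum (at most 2763 TPM in centrocytes and at least 2740 TPM in centroblasts). Cytosolic over mitochondrial sums were 5.95 ± 0.55 in L252P centrocytes, 5.80 ± 0.27 in control centrocytes, 6.16 ± 0.28 in L252P centroblasts and 6.47 ± 0.20 in control centroblasts. This ratio overlapped between zones in both genotypes. In controls the overlap was at the edges, with centrocytes at most 6.25 and centroblasts at least 6.22. Lars2, the mitochondrial leucine enzyme, lay between 46.7 and 144 TPM over the 5 L252P centrocyte libraries, and leaving it out gave ratios of 6.995, 6.88, 7.70 and 7.58. Without it, control centrocytes reached at most 7.14 and control centroblasts had at least 7.34, with no overlap, while L252P centrocytes reached 7.40 and L252P centroblasts began at 7.23.

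**Figure D1:**
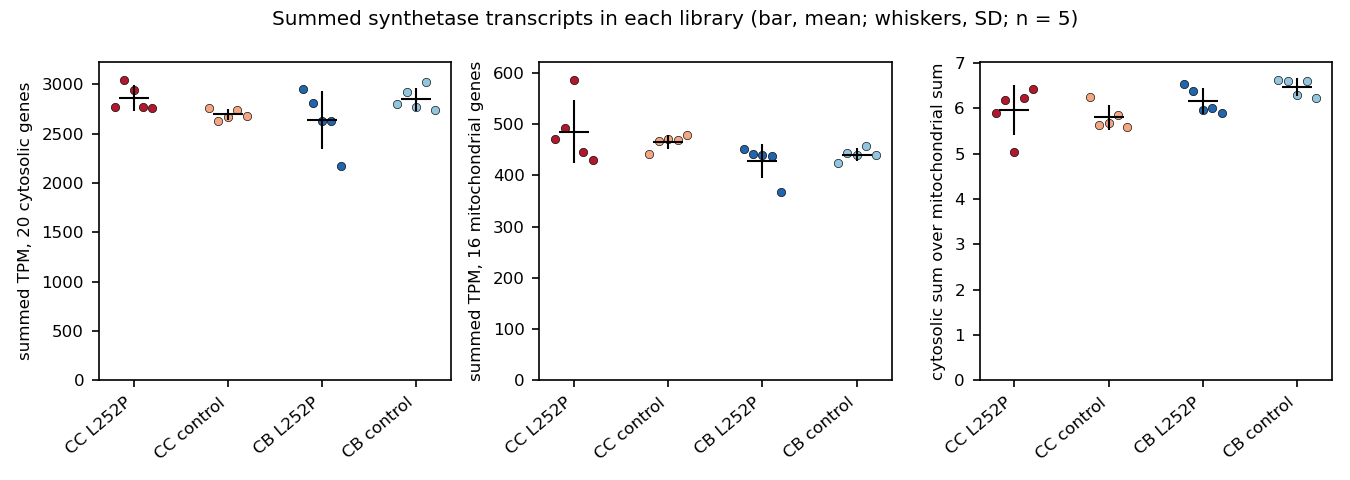
Summed TPM of the 20 cytosolic genes (left) and of the 16 mitochondrial genes (middle), and their ratio (right), with 1 point a library, in L252P centrocytes (CC), control centrocytes, L252P centroblasts (CB) and control centroblasts; bars are means and whiskers SD (n = 5). L252P centroblast library 5 is the lowest point of both sums, at 2174 and 369 TPM, and L252P centrocyte library 3 the highest mitochondrial one, at 586 TPM.

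Promoter sequence was available for 26 of the 36 members. These RefSeq windows (GRCm38.p6) run for 300 bases, 250 before the start of the gene and 50 after it, and make 27 windows since Aars2 has a pair. The amino acid response element, a motif bound by ATF4 and its partners, was searched as TGATGNAAN, and the E-box, bound by Myc family proteins, as CACGTG, both on either strand. In the members' windows no match of one overlapped a match of the other. The response element was found in 5 of 12 cytosolic windows and 0 of 15 mitochondrial windows, against 3.95% of all 32851 windows. The E-box was found in 4 of 12 cytosolic windows (Aars, Iars, Tars and Farsb) and 1 of 15 mitochondrial windows (Ears2), against 7.15% of all windows. A match describes these letters and shows no binding. The windows of the 5 cytosolic members with a response element are printed because they let members with unlike zone folds be set side by side. Each runs 5′ to 3′ on the strand of the gene, positions -150 to 30 counted from the start site with no position 0, and capitals mark both motifs. The positions are chr8:111033692-111033871 (plus strand) for Aars, chr6:55037851-55038030 (plus) for Gars, chr13:49681980-49682159 (plus) for Iars, chr15:11399629-11399808 (minus) for Tars and chr4:129189753-129189932 (plus) for Yars.
Aars: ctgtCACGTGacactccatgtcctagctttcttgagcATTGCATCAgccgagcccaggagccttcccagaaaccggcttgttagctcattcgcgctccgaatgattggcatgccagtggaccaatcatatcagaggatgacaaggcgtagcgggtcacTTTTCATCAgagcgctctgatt
Gars: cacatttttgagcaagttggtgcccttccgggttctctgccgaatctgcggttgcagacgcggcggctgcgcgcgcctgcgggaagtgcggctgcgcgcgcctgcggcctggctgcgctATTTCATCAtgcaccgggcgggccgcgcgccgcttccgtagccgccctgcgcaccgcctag
Iars: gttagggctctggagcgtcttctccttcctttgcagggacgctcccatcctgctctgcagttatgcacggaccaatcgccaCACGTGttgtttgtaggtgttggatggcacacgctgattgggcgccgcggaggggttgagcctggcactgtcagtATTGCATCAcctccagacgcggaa
Tars: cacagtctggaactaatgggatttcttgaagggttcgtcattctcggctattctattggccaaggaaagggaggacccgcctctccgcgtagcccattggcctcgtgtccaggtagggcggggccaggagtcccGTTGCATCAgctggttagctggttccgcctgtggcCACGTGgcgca
Yars: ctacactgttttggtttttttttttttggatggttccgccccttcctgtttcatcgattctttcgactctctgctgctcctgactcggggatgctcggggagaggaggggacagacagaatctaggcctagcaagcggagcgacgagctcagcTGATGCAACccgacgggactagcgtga
Aars, for alanine, holds the element at positions -113 and 9 with an E-box at -146, Gars, for glycine, holds it at -31, Iars, for isoleucine, at 7 with an E-box at -69, Tars, for threonine, at -16 with an E-box at 20, and Yars, for tyrosine, at 4.

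Between zones in control mice, a few synthetase genes were higher in centrocytes and more cytosolic ones were lower. Eprs, Lars and the mitochondrial Wars2 rose, and Vars, Qars, Cars, Dars, Gars and the mitochondrial Fars2 fell, so 9 of 36 members were called (3 higher, 6 lower). Over all tested genes 30.7% were called, 21.2% higher and 9.48% lower. Of the cytosolic members 2 were called higher and 5 lower, with a median log2 fold of -0.07, and of the mitochondrial members 1 was called each way, with a median of 0.16, while the median of all tested genes was 0.14. Each library was also rescaled by its median ratio to the others (median-of-ratios scaling). The medians were then -0.21 for cytosolic members, 0.02 for mitochondrial members and 0.004 for all genes. Under that scaling 9 cytosolic members were called lower, where 17.7% of all genes were called lower and 17.9% higher.

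Eprs encodes the fused glutamyl- and prolyl-tRNA synthetase of the multisynthetase complex (chr1:185363044-185428360, plus strand, GRCm38). It had 135, 138, 136, 136 and 127 TPM in control centrocytes, against 87.8, 116, 83.3, 96.3 and 76.4 TPM in control centroblasts. Every centrocyte library was above every centroblast library, and the log2 fold was 0.56 ± 0.16 (adjusted p = 0.0131). Lars, the leucine enzyme of the same complex, had 85.5, 83.8, 87.3, 89.9 and 87.5 TPM in control centrocytes, against 55.8, 78.9, 61.2, 80.3 and 60.2 TPM in control centroblasts. The groups did not overlap, though 2 centroblast libraries came within 5 TPM of the centrocytes, and the log2 fold was 0.38 ± 0.14 (adjusted p = 0.0388). Wars2 had 4.43, 7.43, 7.81, 5.95 and 6.27 TPM in control centrocytes, against 4.09, 4.81, 4.03, 3.80 and 3.66 TPM in control centroblasts. Centrocyte library 1 lay among the centroblasts and the other 4 above them, and the log2 fold was 0.52 ± 0.13 (adjusted p = 0.00452).

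Vars, the most abundant member in centroblasts, lies on chromosome 17 and had 238, 247, 247, 215 and 242 TPM in control centrocytes, against 256, 326, 299, 447 and 309 TPM in control centroblasts. All 5 centrocyte libraries were below the lowest centroblast library, and the log2 fold was -0.44 ± 0.12 (adjusted p = 0.0103). Qars, the glutamine enzyme, which has no mitochondrial counterpart, had 208, 198, 209.8, 206 and 214 TPM in control centrocytes, against 256, 227, 272, 255 and 263 TPM in control centroblasts. It did not overlap either, at a log2 fold of -0.29 ± 0.08 (adjusted p = 0.00909). Cars, for cysteine, had 36.005, 38.4, 37.2, 38.0 and 34.7 TPM in control centrocytes, against 42.8, 45.0, 44.6, 52.3 and 43.9 TPM in control centroblasts. Again the groups were separate, and the log2 fold was -0.30 ± 0.10 (adjusted p = 0.0309). Dars, for aspartate, had 230.5, 194, 207, 229.9 and 198 TPM in control centrocytes, against 284, 299.96, 242, 223 and 245 TPM in control centroblasts. Its groups overlapped through centroblast library 4, and the log2 fold was -0.28 ± 0.09 (adjusted p = 0.0211). Gars, whose promoter carries a response element, averaged 207 ± 10.9 TPM in control centrocytes and 251 ± 14.7 TPM in control centroblasts (SD, n = 5 each; log2 fold -0.28, adjusted p = 0.0353).

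Fars2, the mitochondrial enzyme for phenylalanine, had 36.8, 35.1, 38.2, 38.4 and 39.0 TPM in control centrocytes, against 46.4, 39.8, 57.2, 55.4 and 45.9 TPM in control centroblasts. Centroblast library 2 came closest to the centrocytes without reaching them, and the log2 fold was -0.36 ± 0.10 (adjusted p = 0.00973). The 10 members whose control groups did not overlap (26.5% of all genes, 17% higher and 9.51% lower) were Eprs, Lars and Iars on the high side and Vars, Qars, Cars, Gars, Mars, Sars and Fars2 on the low side. Iars, whose window like those of Aars and Tars holds both motifs, had a log2 fold of 0.32 ± 0.15 (adjusted p = 0.107). The other 26 uncalled members lay between -0.19 for Mars and 0.40 for Aars2. Calls for Lars, Gars, Cars and Dars were each lost when any of several single libraries was left out, and those for Eprs, Wars2, Qars, Vars and Fars2 passed in all 20 such fits. Without L252P centroblast libraries 4 and 5, which change here the shared estimate of spread and the genes tested (11352) but no fold, 8 members were called higher and 9 lower, where 33.4% and 14.3% of all genes were.

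**Figure D2:**
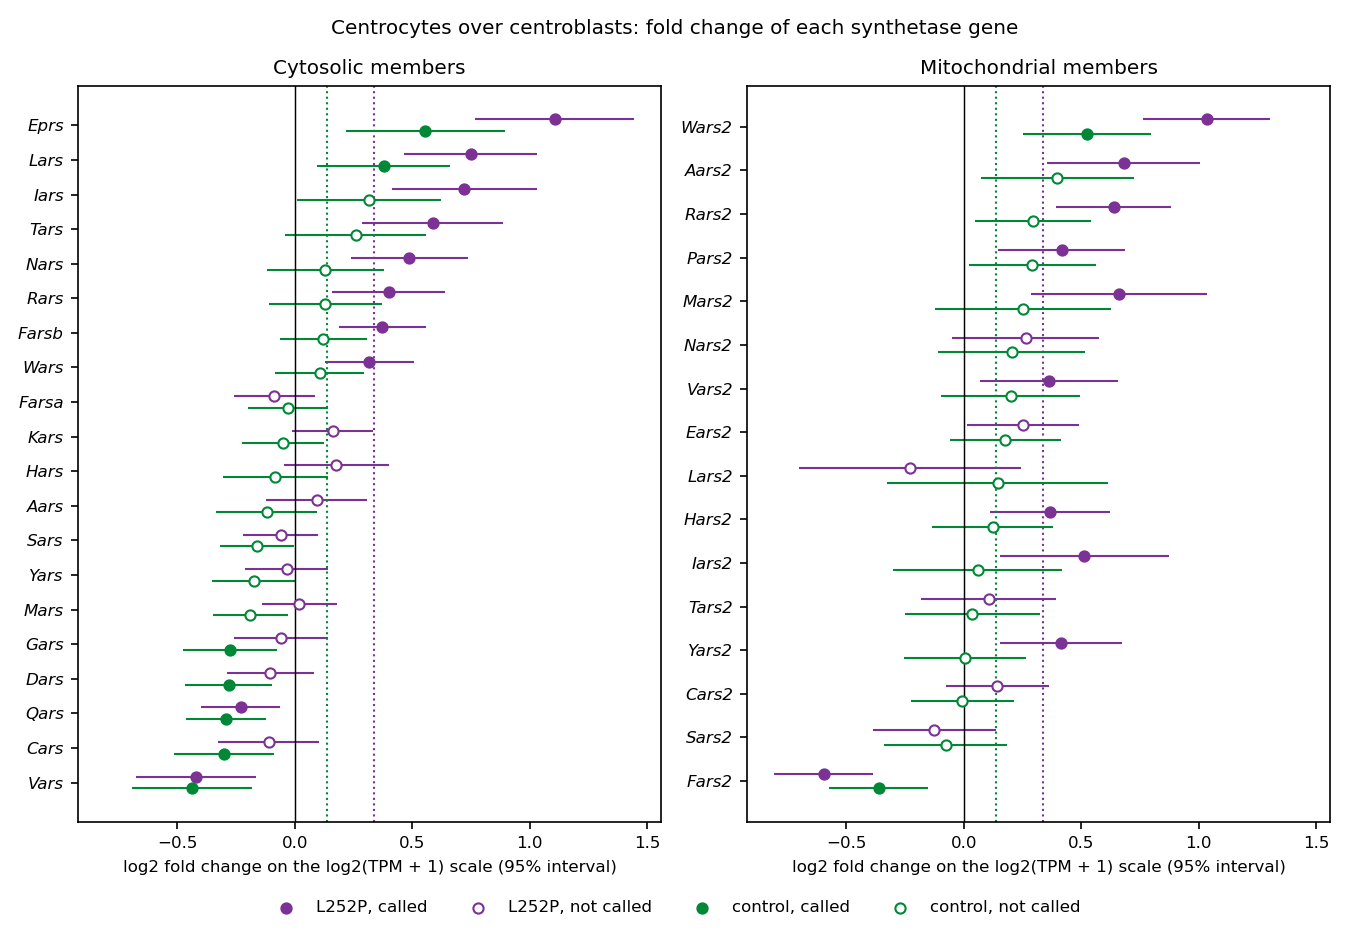
Log2 fold change of each member, centrocytes over centroblasts, in L252P and in control mice, with 95% intervals; filled points were called and dotted lines mark the median of all tested genes (0.34 in L252P, 0.14 in controls). Eprs and Wars2 are furthest to the right and Fars2 and Vars furthest to the left. Cytosolic calls in L252P mice were 8 higher and 2 lower as plotted, where 48.8% and 12.6% of all genes were. Under median-of-ratios scaling they were 4 higher and 12 lower, where 29.6% and 28.9% of all genes were.

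In L252P mice 20 of 36 members were called between zones, 17 higher and 3 lower in centrocytes. That compares with 61.5% of all tested genes called, 48.8% higher and 12.6% lower. The cytosolic members called higher were Eprs, Lars, Iars, Tars, Nars, Rars, Farsb and Wars, and the mitochondrial ones were Wars2, Aars2, Mars2, Rars2, Iars2, Pars2, Yars2, Hars2 and Vars2, while Vars, Qars and Fars2 were called lower. The class medians were 0.13 for cytosolic and 0.36 for mitochondrial members, with 0.34 for all genes, and with median-of-ratios scaling they were -0.23, 0.03 and 0.01. They were 0.04, 0.19 and 0.17 without L252P centroblast libraries 4 and 5. Under median-of-ratios scaling 8 members were called higher and 15 lower, where 29.6% and 28.9% of all genes were. Of the 20 calls 11 were kept with their sign, 9 were lost and 12 others were gained, so cytosolic calls were 8 higher and 2 lower as TPM and 4 higher and 12 lower after rescaling. The cytosolic median lay below that of all genes in both genotypes. Rescaling multiplies every gene of a library by the same factor, so it hardly changes that gap and is no separate test of it.

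Eprs had 161, 165, 166, 149.8 and 143 TPM in L252P centrocytes, against 108, 80.8, 86.3, 60.7 and 42.7 TPM in L252P centroblasts. The groups were well apart, the lowest centroblast values being those of libraries 4 and 5, and the log2 fold was 1.11 ± 0.16 (adjusted p = 1.14e-05). Without those libraries it was 0.78 (adjusted p = 7.47e-06). Wars2 had 7.92, 7.58, 7.35, 7.55 and 6.78 TPM in L252P centrocytes, against 3.50, 3.13, 3.05, 3.32 and 2.63 TPM in L252P centroblasts. No library overlapped, and the log2 fold of 1.03 ± 0.13 (adjusted p = 1.82e-06) was 0.997 without libraries 4 and 5. Lars had 91.5, 97.9, 96.4, 87.0 and 87.1 TPM in L252P centrocytes, against 72.5, 57.2, 59.4, 54.2 and 35.2 TPM in L252P centroblasts (log2 fold 0.75 ± 0.14, adjusted p = 0.000106, and 0.54 without those libraries). Iars, the isoleucine enzyme, had 86.8, 92.9, 97.1, 81.0 and 78.0 TPM in L252P centrocytes, against 75.8, 57.0, 57.8, 49.6 and 31.4 TPM in L252P centroblasts. Its highest centroblast library came within 3 TPM of the lowest centrocyte library, and the log2 fold was 0.72 ± 0.15 (adjusted p = 0.000338), and 0.46 without libraries 4 and 5.

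Rars2, the mitochondrial arginine enzyme, had 73.5, 68.3, 71.2, 65.7 and 65.8 TPM in L252P centrocytes, against 49.4, 52.1, 52.1, 37.6 and 32.3 TPM in L252P centroblasts (log2 fold 0.64 ± 0.12, adjusted p = 0.000134), with no overlap, and the fold was 0.42 without libraries 4 and 5. Aars2, for alanine, averaged 12.0 ± 1.82 TPM in L252P centrocytes and 7.11 ± 1.11 TPM in L252P centroblasts, and Mars2, for methionine, averaged 11.0 ± 1.36 and 6.90 ± 2.26 TPM in the same groups (SD, n = 5 each). Both rose, at log2 folds of 0.68 for Aars2 and 0.66 for Mars2, which were 0.54 and 0.36 without libraries 4 and 5. Tars, with a response element and an E-box in its window, rose by 0.59 ± 0.14 (adjusted p = 0.00161), and by 0.33 without those libraries, whereas Aars, Gars and Yars, whose windows also hold the element, had log2 folds of 0.09, -0.06 and -0.03 and were not called. Without libraries 4 and 5 Gars was called lower, at -0.20 (adjusted p = 0.0177). Median-of-ratios scaling called Aars, Gars and Yars lower in L252P mice, where 28.9% of all genes were, and kept Tars and Iars higher. In controls it also called Aars and Yars lower, where 17.7% of all genes were.

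The 3 members called lower in L252P centrocytes were also called lower in control centrocytes; the comparisons have no library in common but share 1 estimate of the spread. Fars2 had 30.7, 33.7, 36.2, 32.7 and 37.7 TPM in L252P centrocytes, against 53.2, 55.6, 46.8, 59.4 and 46.9 TPM in L252P centroblasts. Its groups did not overlap, at a log2 fold of -0.60 ± 0.10 (adjusted p = 5.5e-05), and -0.59 without libraries 4 and 5. Vars had 217, 255, 274, 234 and 214 TPM in L252P centrocytes, against 365, 293, 248, 342 and 362 TPM in L252P centroblasts. Centroblast library 3 fell among the centrocytes, and the log2 fold was -0.42 ± 0.12 (adjusted p = 0.00588), or -0.33 (adjusted p = 0.0518) without libraries 4 and 5. Qars had 183, 203, 205, 208 and 194 TPM in L252P centrocytes, against 246, 269.9, 235, 234 and 187 TPM in L252P centroblasts. Only centroblast library 5 overlapped, and the log2 fold was -0.23 ± 0.08 (adjusted p = 0.0188), and -0.33 without that library and library 4.

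Groups did not overlap for 13 of the members called higher and for Fars2, where 36.6% of all genes did not overlap, 28.7% higher and 7.91% lower. Of the 20 calls in L252P mice, 9 held under each of 6 other settings: Eprs, Lars, Iars, Tars, Wars2, Aars2, Mars2 and Rars2 higher, and Fars2 lower. Without L252P centroblast libraries 4 and 5, 13 members were called higher and 3 lower, where 35.9% and 14.9% of all genes were. The calls for Vars, Vars2, Hars2, Iars2, Pars2 and Yars2 were lost, and Ears2 was called higher and Gars lower.

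**Figure D3:**
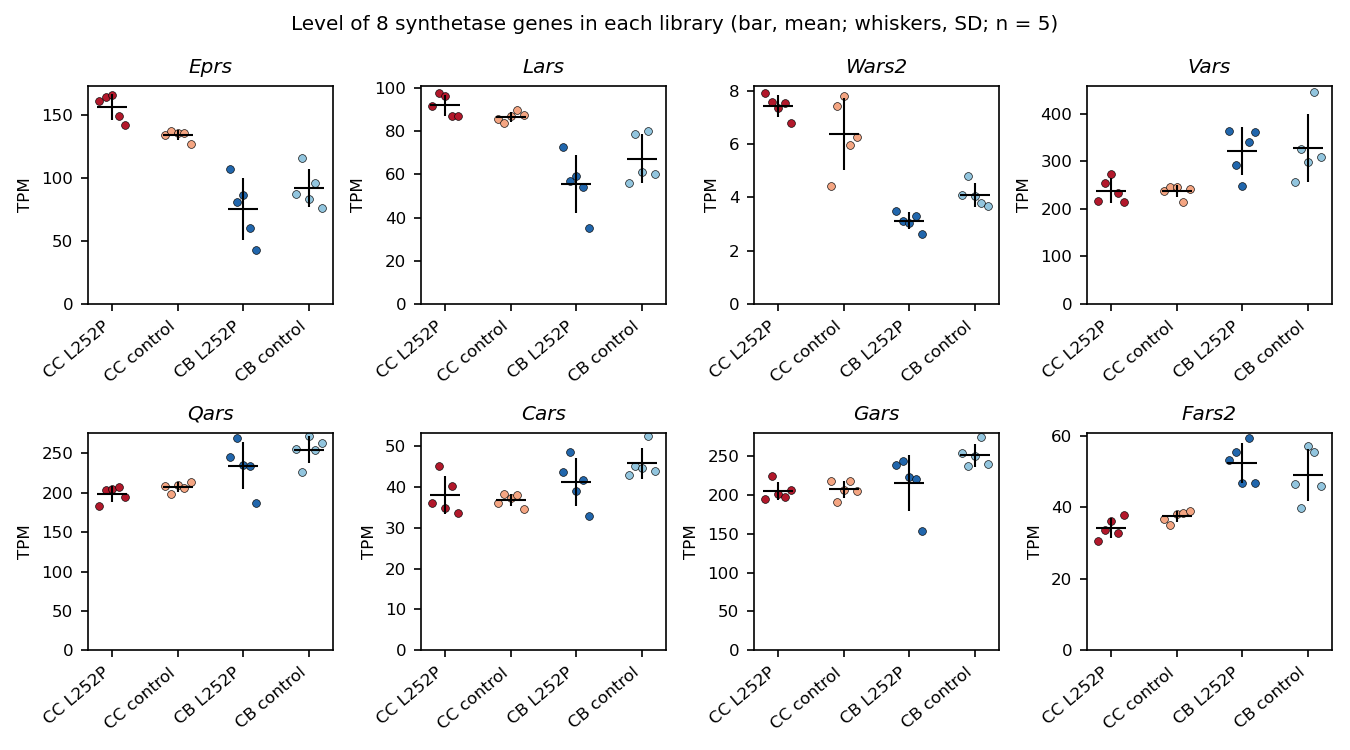
Level in TPM of 8 members in each library, in L252P centrocytes (CC), control centrocytes, L252P centroblasts (CB) and control centroblasts; bars are means and whiskers SD (n = 5). Eprs averages 157, 134, 75.6 and 91.96 TPM and Fars2 34.2, 37.5, 52.4 and 48.9 TPM in that order.

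For 2 amino acids the cytosolic and mitochondrial genes were called in opposite directions in L252P mice. For valine, Vars fell while Vars2 had 12.1, 14.04, 18.7, 14.2 and 11.9 TPM in L252P centrocytes, against 12.8, 11.7, 11.0, 9.58 and 8.76 TPM in L252P centroblasts (log2 fold 0.36 ± 0.14, adjusted p = 0.0324). The groups of Vars2 overlapped, since centroblast library 1 lay above 2 of the centrocyte libraries, and the calls of both Vars and Vars2 were among those lost without libraries 4 and 5. Vars over Vars2 had a median of 17.9 (14.7 to 18.2) in L252P centrocytes and 28.6 (22.6 to 41.4) in L252P centroblasts. The same ratio was 16.4 (15.3 to 19.1) in control centrocytes and 27.4 (22.8 to 28.6) in control centroblasts, so it separated the zones without overlap in both genotypes. The genes lie 639312 bases apart on chromosome 17.

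For phenylalanine, whose cytosolic enzyme is built from Farsa and Farsb subunits, Fars2 fell while Farsb had 172, 169.8, 153, 163 and 177 TPM in L252P centrocytes, against 148, 131, 128, 138 and 101 TPM in L252P centroblasts (log2 fold 0.37 ± 0.09, adjusted p = 0.0012). The groups of Farsb were separate, and its call was lost after median-of-ratios scaling. Farsa was not called, at a log2 fold of -0.09. Farsb over Fars2 was 4.97 (4.23 to 5.60) in L252P centrocytes and 2.36 (2.16 to 2.79) in L252P centroblasts. In controls it overlapped, at 4.28 (3.80 to 4.44) in control centrocytes and 2.94 (2.34 to 4.12) in control centroblasts. Farsa over Fars2 did not overlap between zones in either genotype, with medians of 2.78 in L252P centrocytes, 2.53 in control centrocytes, 1.87 in L252P centroblasts and 1.96 in control centroblasts. Aars over Aars2 and Cars over Cars2, like Vars over Vars2, were lower in every centrocyte library than in any centroblast library of the same genotype. Rars over Rars2 and Wars over Wars2 were lower in centrocytes without overlap in L252P mice only, and Mars over Mars2 in controls only. Eprs over Ears2 and over Pars2 was higher in centrocytes without overlap in L252P mice only. For Hars, Iars, Lars, Nars, Sars, Tars and Yars the ratio overlapped between zones in both genotypes. How often ratios of other genes separate was not examined. These ratios are within a library and do not depend on its scaling.

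Calls among the 8 members of the multisynthetase complex went in both directions. Between zones in L252P mice Eprs, Lars, Iars and Rars were called higher and Qars lower, with Dars, Kars and Mars uncalled. These counts are near the share of all genes, 48.8% higher and 12.6% lower. In control mice Eprs and Lars were called higher and Qars and Dars lower, with Iars, Kars, Mars and Rars uncalled. Over all genes 21.2% were called higher and 9.48% lower there. The median log2 fold of the 8 was 0.28 in L252P mice and 0.04 in controls, and that of the 12 cytosolic members outside the complex was 0.03 in L252P mice and -0.10 in controls. For all genes the median was 0.34 in L252P mice and 0.14 in controls. Without libraries 4 and 5 the L252P medians were 0.11 in the complex and 0.01 outside it, beside 0.17 for all genes. After median-of-ratios scaling Dars, Kars and Mars were called lower and Rars was not called in L252P mice, and Mars was called lower in controls. That scaling called 28.9% of all genes lower in L252P mice and 17.7% in controls. None of the 3 genes for scaffold proteins of the complex was called between zones in either genotype.

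The Myd88 L252P genotype itself left no synthetase gene past the threshold. In L252P against control centroblasts 0 of 36 members were called by limma (4.29% of all tested genes were, 0.905% higher and 3.38% lower), with 6 at an unadjusted p under 0.05, where 30.3% of all genes were. Without libraries 4 and 5 again 0 members were called, and the balance over all genes turned, with 2.15% higher and 1.45% lower. In centrocytes 0 of 36 were called (1.2% of all genes, 0.896% higher and 0.307% lower), with 1 at an unadjusted p under 0.05 (9.61% of all genes). For the difference between the genotype effects in the zones 0 members were called (0.0176% of all genes), with 4 at an unadjusted p under 0.05 (11.6% of all genes). For genotype in each zone the median unadjusted 95% interval of a member reached 0.25 log2 units either side of its fold. For the difference it reached 0.35. Members with larger folds were not called either.

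In centroblasts 18 of 20 cytosolic and 12 of 16 mitochondrial members had folds below 0, as did 8230 of all 11386 tested genes. The medians were -0.14 in both classes, beside -0.16 for all genes. Without L252P libraries 4 and 5 these medians were -0.03, -0.01 and -0.02. The lowest adjusted p was that of Mars2, which averaged 6.90 ± 2.26 TPM in L252P centroblasts and 9.41 ± 1.69 TPM in control centroblasts (SD, n = 5 each; log2 fold -0.44, 95% interval -0.82 to -0.07, adjusted p = 0.115). Its log2 fold was -0.14 without libraries 4 and 5. Wars2 was the 1 member whose centroblast groups did not overlap, where 3.74% of all genes did not (0.755% higher and 2.99% lower). It had 3.50, 3.13, 3.05, 3.32 and 2.63 TPM in L252P centroblasts, against 4.09, 4.81, 4.03, 3.80 and 3.66 TPM in control centroblasts, at a log2 fold of -0.30 ± 0.13 (adjusted p = 0.133), and -0.26 without libraries 4 and 5. Leaving out L252P centroblast library 1, whose share of TPM in transcripts no longer than 1938 bases was 44.2%, gave 6 members called lower, namely Eprs, Iars, Lars, Gars, Iars2 and Mars2, in a fit that called 23.6% of all genes lower and 3.71% higher.

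In centrocytes 18 of 20 cytosolic members had folds above 0 and 9 of 16 mitochondrial members did, as did 6234 of all 11386 tested genes. The medians were 0.10 and 0.01, beside 0.02 for all genes. Mars, the methionine enzyme of the multisynthetase complex, had the lowest adjusted p. It had 90.6, 108, 98.2, 88.7 and 89.9 TPM in L252P centrocytes, against 86.3, 82.6, 81.1, 83.3 and 82.6 TPM in control centrocytes. The groups did not overlap, and the log2 fold was 0.19 ± 0.08 (adjusted p = 0.383). Eprs, Rars and Rars2 also did not overlap, each higher in L252P centrocytes, where 4.63% of all genes did not overlap (2.63% higher and 1.99% lower). Their log2 folds were 0.22, 0.19 and 0.20, with adjusted p-values of 0.853, 0.73 and 0.692, and Eprs was called when the fit used only the 10 centrocyte libraries (adjusted p = 0.0493).

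**Figure D4:**
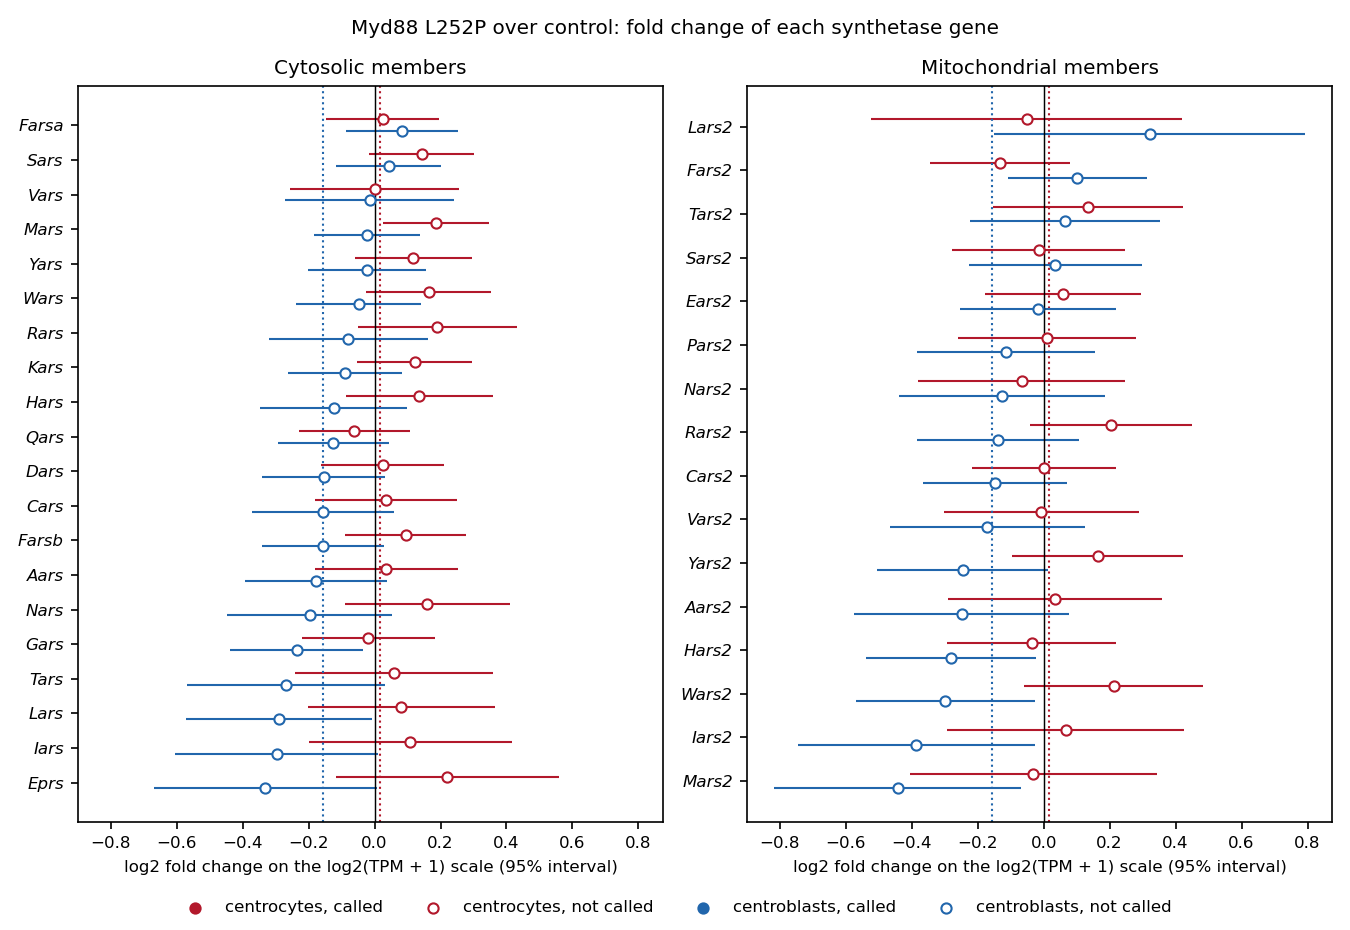
Log2 fold change of each member, L252P over control, in centrocytes and in centroblasts, with 95% intervals; dotted lines mark the median of all tested genes (0.02 in centrocytes, -0.16 in centroblasts). No point is filled, since no member was called; Mars2 and Iars2 are furthest to the left in centroblasts, at -0.44 and -0.39 (-0.14 and -0.0023 without L252P libraries 4 and 5).

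Transcript length went with the folds in some comparisons. Across the 36 members, Spearman's rho between the length of the longest coding transcript and the log2 fold was -0.51 for genotype in centroblasts, 0.36 for zone in L252P mice, 0.35 for zone in controls, 0.34 for the difference between genotype effects and -0.038 for genotype in centrocytes. Across 9795 tested genes with a coding transcript the values were -0.52, 0.48, 0.32, 0.55 and 0.081 in that order. For the zones, rho was 0.20 in L252P mice and 0.12 in controls over the cytosolic members alone, and 0.40 and 0.39 over the mitochondrial ones. Without L252P centroblast libraries 4 and 5 it was -0.36 for genotype in centroblasts over the members and -0.19 over all genes. For zone in L252P mice rho was then 0.38 over the members and 0.36 over all genes. For the difference between genotype effects it was 0.23 and 0.26. Over the cytosolic and the mitochondrial members alone, zone in L252P mice then gave 0.32 and 0.28. These are descriptions over genes of the same libraries. In controls the longest coding transcripts of Eprs, Lars and Wars2, called higher, were 4906, 3980 and 4410 bases, and the 5 cytosolic members called lower had a median of 2800 bases, with Vars, at 4137 bases, the longest. The part of length in the calls was not tested.

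**Figure D5:**
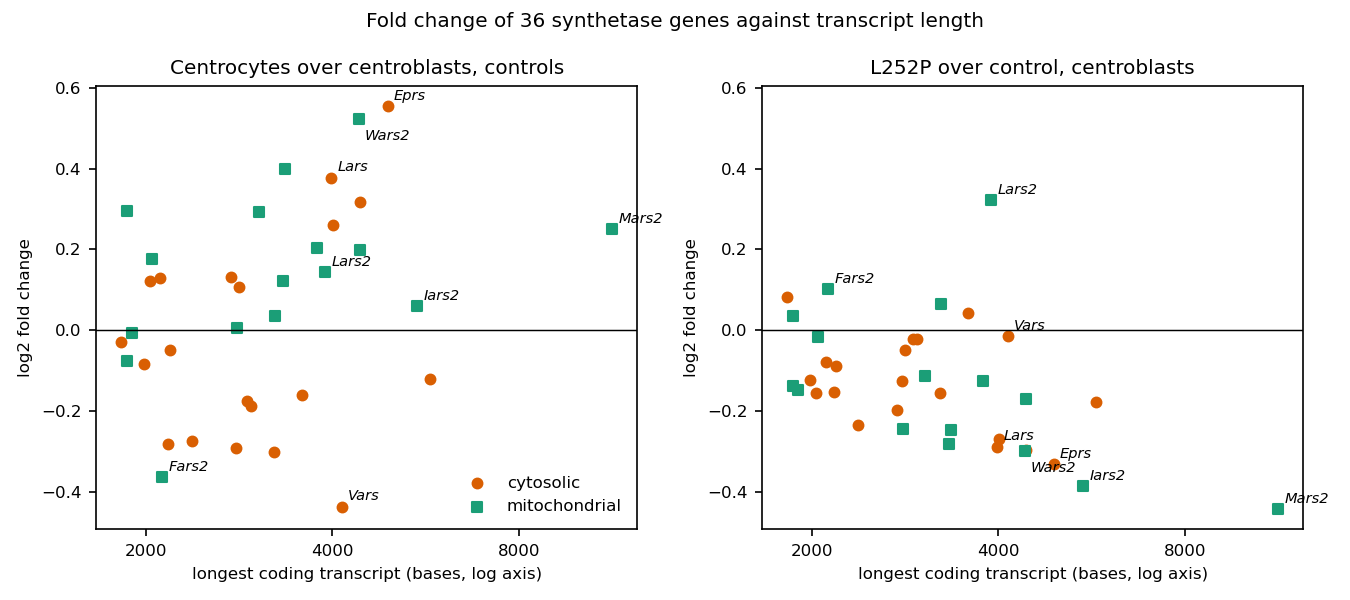
Log2 fold of each member against the length of its longest coding transcript in bases (log axis), for centrocytes over centroblasts in controls (left) and L252P over control in centroblasts (right), cytosolic and mitochondrial members marked apart. The points slope upward on the left (Spearman's rho 0.35) and downward on the right (-0.51).

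Some members share sequence with a neighbour, and how reads were counted is not stated in the labels. Hars and Hars2 lie head to head on chromosome 18 and overlap by 197 bases, and Iars2 shares 36.6% of the 50-base stretches of its longest coding transcript with annotated transcripts of Rab3gap2, Aars 22.4% mostly with Exosc6, Cars2 17.8% with Naxd and Farsb 10.1% with Sgpp2. Iars shares 8.61%, mostly with Gm4849, Vars2 3.61%, mostly with Gm20483, and Fars2 3.18%, mostly with Lyrm4. Stretches were matched on either strand, so overlap with a gene on the opposite strand is included. Values of these members may be less certain than those of Eprs, Lars, Vars, Qars, Cars, Dars and Gars, for which no such stretch was found. The part of shared sequence in the values was not tested.

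Partner genes of the same process were counted beside the members. Of 25 tested genes of the amino acid response, which hold Atf4 and known targets of it, 5 were called higher and 3 lower in control centrocytes than in control centroblasts, where 21.2% and 9.48% of all genes were. Ddit4, an inhibitor of mTORC1, rose by 1.54, and Slc3a2, the heavy chain of amino acid exchangers, by 0.41. Psat1, of serine synthesis, and Trib3, a feedback inhibitor of ATF4, changed by -0.40 and -0.90. Of 20 tested partners of mitochondrial charging only Trnt1, which adds the CCA end to transfer RNAs, was called in controls, at 0.51. Of 15 tested genes of GCN2 signalling and amino acid sensing 4 were called higher and 2 lower. Sesn1, a sestrin, rose by 1.03, Gatsl3 (now Castor1, an arginine sensor) by 0.99 and Impact, an inhibitor of GCN2, by 1.04, and Eif2ak3, the kinase PERK, changed by -0.65. Of 10 cytosolic elongation and recycling factors 2 were called higher and 1 lower, with Abce1, a ribosome recycling factor, at 0.41 and Eef2, the translocation factor, at -0.29. In L252P mice the counts between zones were 11 higher and 3 lower for the response, 8 and 1 for mitochondrial partners, 10 and 3 for sensing and 3 and 3 for elongation, in a comparison that called 48.8% of all genes higher and 12.6% lower. Without libraries 4 and 5 they were 11 and 3, 4 and 1, 7 and 3, and 3 and 2. In that fit 35.9% of all genes were called higher and 14.9% lower.

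By genotype, where no synthetase gene was called, a few partners were. Ppp1r15a, the phosphatase subunit that reverses the eIF2α block, had 33.2 to 56.6 TPM in L252P centrocytes, against 59.1 to 71.8 TPM in control centrocytes, and 19.7 to 33.9 TPM in L252P centroblasts, against 41.2 to 52.3 TPM in control centroblasts. It was lower in both zones with no overlap, at log2 folds of -0.61 in centrocytes (adjusted p = 0.0247) and -0.87 in centroblasts (adjusted p = 0.00143), where it was -0.68 without libraries 4 and 5. Atf4 itself had a log2 fold of -0.34 in centroblasts (adjusted p = 0.0459) and of -0.15 in centrocytes (adjusted p = 0.757). Among 25 response genes these were the 2 called in centroblasts and Ppp1r15a the 1 called in centrocytes. Over all genes 3.38% were called lower in centroblasts and 0.307% in centrocytes. Eif2ak3 and Eif2ak1, kinases of eIF2α, were lower in L252P centroblasts, at -0.69 and -0.50 (adjusted p = 0.0335 and 0.0374). Without libraries 4 and 5 the calls for Atf4, at -0.22 (adjusted p = 0.0819), and Eif2ak3, at -0.30 (adjusted p = 0.0773), were lost, and Eif2ak1 was at -0.27 (adjusted p = 0.0294).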

How the data were processed

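Total RNA went into a stranded mRNA library kit for each of the 20 samples, per the labels' protocols. The authors deposited 1 table of TPM per gene symbol for each library, which is the unit used here. STAR and the build mm10 are named in the submitters' processing notes, and no source used here gives their versions, the annotation or the counting tool. TPM keeps no read depth, so the depth per library is unknown and no counting interval is given.

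Samples were grouped by title, sort and genotype. The fit was limma 3.58.1 in R 4.3.3 on log2(TPM + 1), with a mean for each of the 4 groups in 1 fit of 20 libraries (residual df 16), moderation with trend and robust settings, two-sided tests and Benjamini-Hochberg adjustment over 11386 genes; it was checked on simulated data. The comparisons were zone in each genotype, genotype in each zone and the difference. Members and partner lists were chosen with earlier results of these data known, so they are not independent of them. Library values are given for called cytosolic and mitochondrial members by adjusted p, called members against the trend of their class and members for 1 amino acid called in opposite directions. Lars, Iars, Rars2, Mars and Wars2 in further comparisons were chosen after their values were seen. Partner genes are named up to 4 a list by adjusted p. Alternatives were a pseudocount of 0.1, no filter, median-of-ratios scaling, only the libraries compared, a replicate block, 18 libraries and leaving out each library.

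Replicate numbers were to pair libraries only if every same-numbered pair of deviations from the group means correlated over 0.1. That did not hold, so the block was kept as an alternative. Positions and transcripts are from GENCODE M21 (GRCm38, the assembly of mm10). Of the members, 26 matched a RefSeq promoter window by symbol. Cars, Hars, Lars, Mars, Nars, Rars, Vars, Wars, Hars2 and Pars2 did not.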

Additional observations from a re-analysis of the deposited data

Results flagged for a closer look

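Among 156 groups of 5 libraries (each member and each class sum or ratio in each group), 7 held a library far from the others of its group by Dixon's criterion of 0.71, and chance flags about 1 in 20 groups. Lars2 had 144 TPM in L252P centrocyte library 3, against 46.7 to 70.5 TPM in the other 4. Rn45s, the ribosomal RNA precursor, was also highest there among the L252P centrocytes, at 919 TPM, against 418 to 656 TPM in the other 4; its part in the Lars2 value was not tested. Lars2 had 56.6 TPM in control centroblast library 1, against 65.6 to 67.8 TPM in the others. In L252P centroblast library 5, which stood apart in its share of short transcripts, Gars had 153 TPM, against 221 to 244 TPM in the others, and the mitochondrial members summed to 369 TPM, against 437 to 451 TPM. Aars had 83.4 TPM in control centrocyte library 3, against 92.2 to 93.2 TPM in the others. Yars had 66.8 TPM in control centrocyte library 4, against 59.0 to 61.0 TPM. Cars had 52.3 TPM in control centroblast library 4, against 42.8 to 45.0 TPM.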

How the results depend on the processing

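Counts of called members kept within 1.5 times of those reported under a pseudocount of 0.1 and without the filter on low values, where Lars lost its call in controls. Median-of-ratios scaling changed the most zone calls in L252P mice. Between zones 10 members were called lower in controls, beside 17.7% of all genes. In L252P mice 8 were called higher and 15 lower, beside 29.6% and 28.9% of all genes. Wars turned in L252P mice to a log2 fold of -0.034 (adjusted p = 0.709). Summed TPM under that scaling was 2585 (cytosolic, L252P centrocytes), 2488 (cytosolic, control centrocytes), 3049 (cytosolic, L252P centroblasts), 429 (mitochondrial, control centrocytes) and 497 (mitochondrial, L252P centroblasts). It centres libraries on the median gene, whose shift in TPM it removes. With only the libraries compared, 6 members were called higher between zones in controls and 1 by genotype in centrocytes. Over all genes that setting called 32.2% and 1.76% higher. Same-numbered libraries of the zones had deviations from their group means that correlated over 0.1 in 4 of 5 pairs in each genotype. The mean was 0.16 in controls and 0.17 in L252P mice, against -0.04 in each for other numbers. Of the centrocyte libraries, 4 of 5 in controls and 3 of 5 in L252P mice correlated best with their own number. The rule needed every pair over 0.1, so the main fit did not pair libraries. Whether the numbers pair them was not settled. The replicate block gave 5 called higher between zones in controls, adding Iars and Rars2, 17 higher and 3 lower in L252P mice and 0 by genotype. Over all genes the block called 26.4% higher between zones in controls, and 51.4% higher and 12.9% lower in L252P mice. By genotype it called 6.96% of all genes in centroblasts and 2.13% in centrocytes. Without L252P centroblast libraries 4 and 5, 8 were called higher in controls, beside 33.4% of all genes. Leaving out each library gave 2 to 7 higher between zones in controls (7 without L252P centroblast library 5, beside 28.7% of all genes). It gave 3 to 7 lower there (3 without control centrocyte library 5, beside 7.93% of all genes). Between zones in L252P mice it gave 16 to 18 higher and 2 to 4 lower. Over all genes those fits gave 43.2% to 52.2% higher and 11.6% to 14.3% lower. By genotype in centroblasts 0 to 6 were called lower (6 without L252P centroblast library 1, beside 23.6% of all genes). The cause of the changes in count was not tested. TPM carries no counting error, so the precision of low members such as Wars2 and Nars2 is known only from the spread of libraries.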

Other observations

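Among genes near the synthetases in function, Cdk5rap1, which adds a methylthio group to mitochondrial transfer RNAs, was called lower in L252P mice in both zones. It had 14.9 to 17.3 TPM in L252P centrocytes, against 27.9 to 32.8 TPM in control centrocytes, and 8.70 to 18.1 TPM in L252P centroblasts, against 28.5 to 43.5 TPM in control centroblasts. The groups did not overlap in either zone, at log2 folds of -0.89 (adjusted p = 0.00291) and -1.30 (adjusted p = 5.31e-05). It was the 1 gene of the 20 partners of mitochondrial charging called by genotype in either zone with all 20 libraries. Over all genes 1.2% were called by genotype in centrocytes and 4.29% in centroblasts. Its centroblast fold was -1.07 without L252P centroblast libraries 4 and 5.

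Wars is an interferon-gamma target in human cells, so the list of interferon-gamma-inducible genes was counted beside it. In L252P against control centrocytes 4 of 18 tested were called higher and none lower, where 0.896% of all genes were called higher, with Gbp7, a guanylate-binding protein, at 1.37, Gbp2 at 1.08 and Igtp, an immunity-related GTPase, at 0.87. In centroblasts 2 of 18 were called higher (0.905% of all genes), the immunoproteasome subunits Psmb10 at 0.48 and Psmb9 at 0.39. Without L252P centroblast libraries 4 and 5 the counts were 10 in centrocytes and 8 in centroblasts, beside 2.28% and 2.15% of all genes. The centrocyte folds do not use those libraries and were unchanged, so only the shared estimate of spread and the genes tested differed there. Wars itself had log2 folds of 0.16 in centrocytes (adjusted p = 0.67) and -0.05 in centroblasts (adjusted p = 0.73). Between zones in controls 6 of the 18 were called higher and none lower, where 21.2% and 9.48% of all genes were, led by Irgm1 at 1.53, while Wars had 0.11 (adjusted p = 0.396). Macrophage markers were higher in the same control centrocytes, and their part was not tested.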
